A study of Mus musculus with 9 samples.

Results

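Noncoding and predicted genes at inflammatory loci were examined in peritoneal macrophages, 5 of the 54059 genes with a deposited FPKM (fragments per kilobase of transcript, scaled to sequencing depth). Gm14023, Il1bos and Gm12223 were chosen by position, because they are annotated on the strand opposite the cytokine genes Il1a, Il1b and Csf2. Gm17586 and Gm6377 were selected on changes seen in these same libraries, so their values in the 3 groups are given as a description with no test. The Gm14023 and Il1bos partners were also known to be lower without SHP2 activity when the genes were chosen. All 5 were matched to GENCODE M21 by gene identifier, and 3 of them, Gm14023, Gm17586 and Gm6377, were among the 11450 genes kept for testing, whose FPKM averaged 1 or more across all libraries.

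The study asked how the phosphatase SHP2 acts on macrophages activated through TLR7. Peritoneal macrophages of C57BL/6 mice, 8 weeks old by the sample labels, were elicited with starch broth, purified by adherence and stimulated in vitro for 4 h with imiquimod (IMQ), a TLR7 agonist. The wild-type group held 3 libraries of IMQ-treated macrophages. The M-Shp2-/- group held 3 libraries from mice with a floxed Shp2 gene and Lyz2-cre, which deletes in macrophages and also in monocytes and neutrophils, after the same IMQ treatment. The SHP099 group held 3 libraries of wild-type macrophages pretreated for 2 h with 10 µM SHP099, an allosteric SHP2 inhibitor, before IMQ. No library of unstimulated cells was analysed here, so that every value is a level after IMQ. Nothing in the labels says that the 3 samples of a group were separate animals, so p values measure the spread between these samples, which may be technical. Both comparisons with wild type used the same 3 wild-type libraries.

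Macrophages that sense single-stranded RNA through TLR7 signal through MyD88 to NF-κB and MAP kinases and switch on cytokine genes within hours. Many of these genes are accompanied by transcripts that do not code for protein, some from the opposite strand of the gene itself and some from the opposite side of its promoter. Such transcripts are often measured poorly in RNA sequencing, because reads from a gene and from its opposite-strand partner look alike unless the library keeps strand information.

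The kit as named, NEBNext Ultra, does not mark strand, and the strand setting used in counting is not given in the sources used here. How much of each member lies on a neighbouring gene therefore matters for every value that follows. Gm14023 (ENSMUSG00000085498, GRCm38 chr2:129297370-129307826, plus strand) is a spliced noncoding transcript of 5 exons and 1781 bases. Of these bases, 222 lie opposite an exon of Il1a (chr2:129299610-129309972, minus strand), 1452 opposite Il1a introns and 107 outside Il1a. The first exon of Gm14023 starts 158 bases from the start of Ckap2l, a mitotic spindle gene on the minus strand, and 12602 bases from the start of Il1a. Il1bos (ENSMUSG00000074805, chr2:129369897-129375748, plus strand) is annotated as an antisense gene. It has 25 of its 2980 exon bases opposite an exon of Il1b (chr2:129364570-129371139, minus strand), and the other 2955 lie upstream of Il1b, beginning 1655 bases before its start. Gm12223 (ENSMUSG00000085585, chr11:54247600-54254495, plus strand) has 96 of its 528 exon bases opposite an exon of Csf2 (chr11:54247271-54249667, minus strand), 40 opposite an intron and 392 outside it.

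The members that were selected on their values lie differently. Gm17586 (ENSMUSG00000097062, chr11:120633768-120635125, plus strand) is a lincRNA of 908 exon bases that overlaps no exon of a neighbouring gene. Its start is 168 bases from that of Mafg (chr11:120625117-120633600, minus strand), which codes for a small Maf transcription factor that pairs with Nrf2 and related bZIP proteins, and the genes point away from each other. Gm6377 (ENSMUSG00000048621, chrX:109196756-109200439, plus strand) is a predicted protein-coding gene. It lies on the same strand as the 3′ end of Sh3bgrl (chrX:109095365-109197873), the gene of a small thioredoxin-like protein, and shares 229 of its 2795 exon bases with it. In the authors' own transcript assembly the span of Sh3bgrl ran from 109094964 to 109200439, which is the annotated end of Gm6377. The assembled span of Gm17586, from 120618376 to 120637583, held the whole of Mafg and touched Sirt7 and Pycr1.

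**Figure D1:**
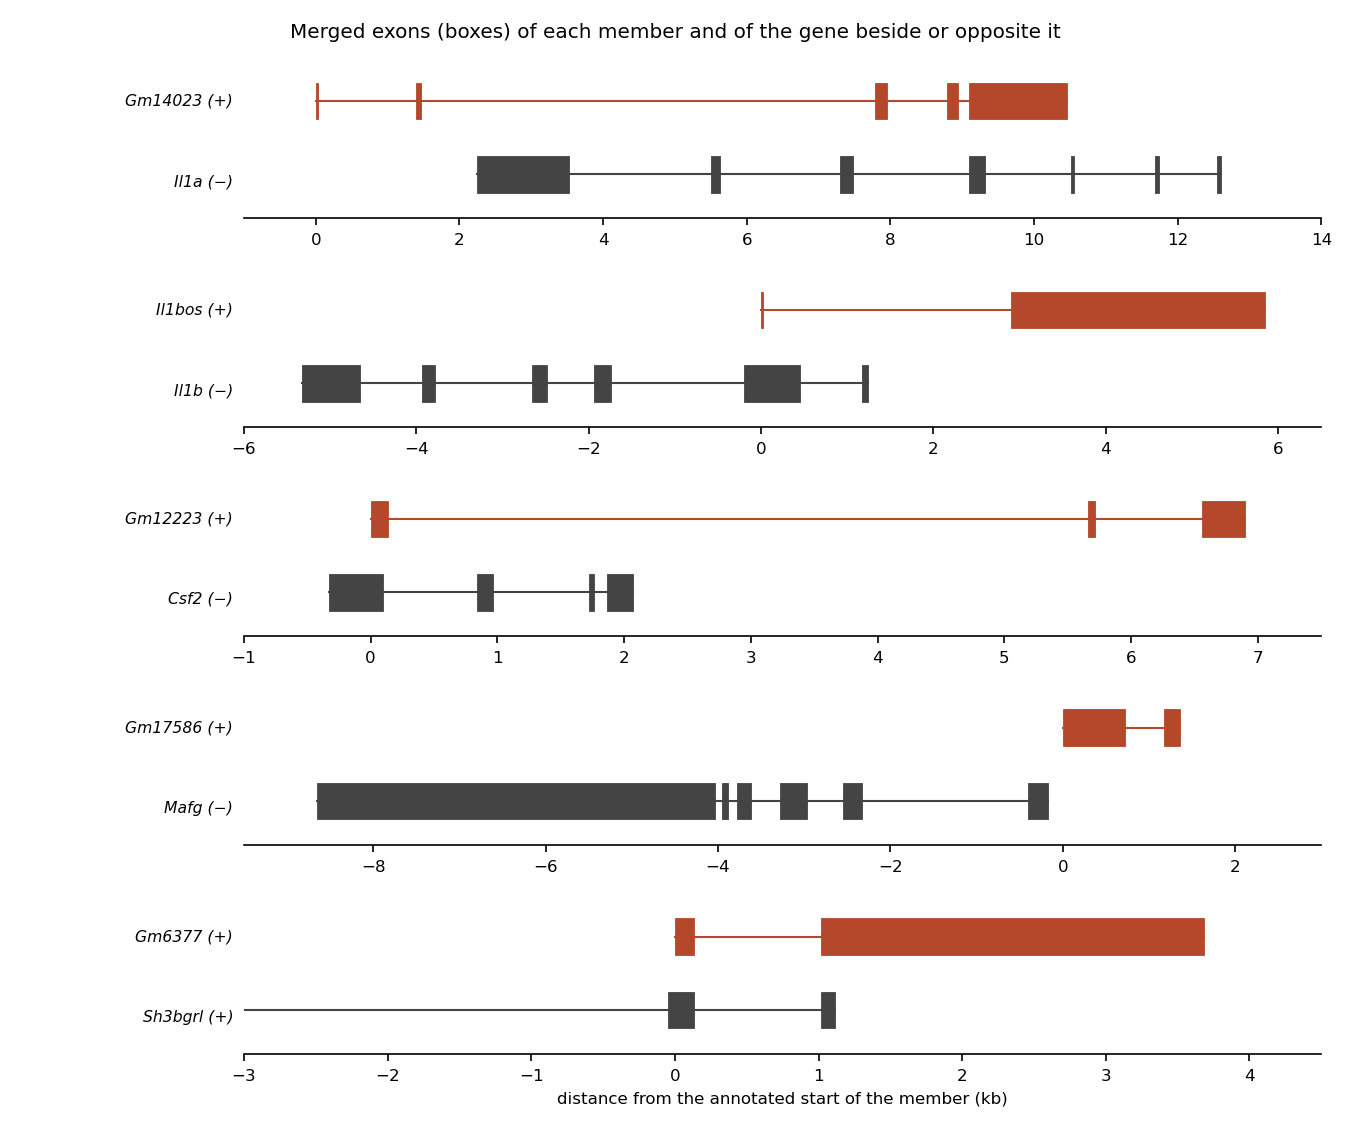
Merged exons (boxes) of each member (red) and of the gene beside or opposite it (grey), with the strand in brackets, by distance in kb from the annotated start of the member; Sh3bgrl continues to the left. Most of Gm14023 lies opposite introns of Il1a, whereas all but 25 exon bases of Il1bos lie upstream of Il1b.

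The stretches in which a member and its partner share exon bases are shown because they are where reads could belong to either gene. They are read from the GENCODE M21 transcripts on the plus strand, so that they are the reverse complement of coding sequence of Il1a and Csf2. The overlap of Gm14023 with the fourth Il1a exon from the left on the map is chr2:129306471-129306692, and that of Gm12223 with Csf2 is chr11:54247600-54247695.
Gm14023 opposite Il1a: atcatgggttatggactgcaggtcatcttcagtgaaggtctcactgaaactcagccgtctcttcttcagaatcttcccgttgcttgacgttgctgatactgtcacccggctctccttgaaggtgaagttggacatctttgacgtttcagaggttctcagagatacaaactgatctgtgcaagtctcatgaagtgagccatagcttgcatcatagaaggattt
Gm12223 opposite Csf2: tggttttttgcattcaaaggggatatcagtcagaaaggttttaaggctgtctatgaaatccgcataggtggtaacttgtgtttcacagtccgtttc

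The start of Il1bos is shown as the RefSeq window of 300 bases on GRCm38.p6 (chr2:129369652-129369951, plus strand), which lies inside Il1b. The capitals mark the first exon of Il1bos, the only 25 bases that it shares with an exon of Il1b, in a transcript that keeps an intron. The exon is followed by gtaagt, the usual form of a splice donor on this strand.
Il1bos: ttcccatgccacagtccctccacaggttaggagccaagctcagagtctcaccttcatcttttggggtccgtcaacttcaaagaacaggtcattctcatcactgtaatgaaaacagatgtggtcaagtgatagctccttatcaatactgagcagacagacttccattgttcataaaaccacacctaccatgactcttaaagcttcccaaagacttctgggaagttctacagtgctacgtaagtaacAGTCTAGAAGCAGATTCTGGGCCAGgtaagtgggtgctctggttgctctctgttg

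How reads over shared bases were counted can be read from genes that consist of nothing else. Of the noncoding genes whose every exon base lies opposite an exon of a protein-coding gene with a wild-type FPKM of at least 100, all 14 had 0 reads in each of the 9 libraries, beside 3459523 reads of their partners. Of 115 noncoding genes whose every exon base lies opposite an intron of such a gene, 14 had 0 reads, and the median was 20 reads over the 9 libraries. In these 14 genes, bases annotated on both strands gave no reads to the noncoding gene. Whether such reads were dropped as ambiguous or counted by strand was not tested. Unless they were counted by strand, reads from unspliced RNA of a partner's introns and reads of an opposite-strand transcript cannot be told apart, which touches 81.5% of the exon bases of Gm14023 and 7.58% of those of Gm12223, and none of those of Il1bos.

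Ptpn11, the gene of SHP2, was measured first as a check of the labels. Its FPKM was 45.8, 44.0 and 40.0 in the wild-type libraries, 18.6, 17.8 and 18.9 in the M-Shp2-/- libraries and 43.0, 42.1 and 39.6 in the SHP099 libraries, so that the level was lower in each library of the deleted genotype and overlapped wild type in the inhibitor group. All 7 macrophage markers (Adgre1, Cd68, Csf1r, Itgam, Lyz2, Mertk and Fcgr1) were above 0 in every library. Their summed FPKM was 10381 ± 1437 (SD, n = 3) in wild type, 6987 ± 178 (SD, n = 3) in M-Shp2-/- and 11880 ± 793 (SD, n = 3) with SHP099, and the most abundant was Lyz2, the locus that carries Cre in M-Shp2-/- mice. Without Lyz2, a sum added after seeing the data, the other 6 markers came to 1976, 1805 and 1743 FPKM in wild type, 2027, 2136 and 1785 in M-Shp2-/- and 1661, 1791 and 1844 with SHP099, and the groups overlapped. The 4 fibroblast markers summed to between 36.0 and 546 FPKM in single libraries, with Col1a1 or Col1a2 most abundant and the highest sums in M-Shp2-/- replicate 3, SHP099 replicate 1 and wild-type replicate 2. B cell markers summed to 2.15 to 3.93 FPKM in wild type, 2.55 to 15.0 in M-Shp2-/- and 0.455 to 1.28 with SHP099, and T cell markers to 0.668 to 4.01, 0.288 to 2.36 and 3.56 to 5.40. Neutrophil markers summed to 114 to 157, 89.2 to 168 and 104 to 144 FPKM, with the groups overlapping. Csf3r (mean 66.4 FPKM) and S100a8 (58.3) made up most of these sums, and S100a9, Ly6g and Ngp averaged 0.366, 0.00784 and 0.0739. Mast cell markers summed to 1.59 to 4.82 FPKM in wild type, above the 0.252 to 1.43 in M-Shp2-/- and the 0.279 to 0.614 with SHP099. Eosinophil markers summed to 0.383 to 0.930, 0.280 to 0.727 and 0.0186 to 0.0368 FPKM, lowest in the SHP099 libraries. Dendritic cell markers summed to 1.15 to 1.53 FPKM in M-Shp2-/-, above every wild-type and SHP099 library, and mesothelial markers to at most 3.18 FPKM in a library. The part of these cells in the values of the members was not tested, and fewer cells of a type and less RNA per cell cannot be told apart.

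The depth of each library was recovered from the FPKM. When each FPKM was multiplied by its gene's mean transcript length, 96.2% to 96.7% of low values (at most 50 reads) fell within 0.05 of a whole multiple of a step set for the library. The steps gave 39842893 to 50981116 reads per library, and the reads of each member follow from them. A floor of 3 reads was set for a value of 0, which covers counting error only.

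Gm14023 was the most abundant of the members chosen by position. Its FPKM was 15.5, 19.0 and 18.0 in the wild-type libraries, from 1221, 1726 and 1360 reads. In the M-Shp2-/- libraries it was 4.92, 5.06 and 5.80, from 378, 371 and 471 reads, and in the SHP099 libraries 3.27, 1.25 and 3.09, from 256, 89 and 241 reads. The 3 groups did not overlap, with wild type highest and SHP099 lowest. Of all tested genes, 3.07% were lower than wild type with no overlap in M-Shp2-/- macrophages and 6.77% after SHP099. In M-Shp2-/- macrophages 30.1% of the wild-type mean remained, and after SHP099 14.5%.

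Against wild type, the log2 fold change of Gm14023 on the log2(FPKM + 1) scale was -1.56 in M-Shp2-/- macrophages (standard error 0.13, limma adjusted p = 0.0172) and placed the gene 35th from the lowest of 11450. With SHP099 it was -2.44 (standard error 0.25, limma adjusted p = 0.00769), which placed it 13th from the lowest. Neither passed an adjusted p of at most 0.005 with a log2 fold change of at least 1 either way, the study's threshold. The study set it for DESeq on read counts, whereas limma on FPKM was used here, so these are not the study's calls. With limma, 1 gene (0.00873%) passed in M-Shp2-/- macrophages and 19 genes (0.166%) after SHP099. Both changes of Gm14023 passed when the adjusted p was set at 0.05, as 0.0786% and 1.72% of the tested genes did. After SHP099 the gene was also called at 0.005 with a pseudocount of 5 and with all 9 libraries in one fit (adjusted p = 0.004 and 0.00297, range over the alternatives 0.00297 to 0.0450). Over the alternatives for M-Shp2-/- macrophages, the adjusted p ranged from 0.0158 to 0.196. The call at 0.05 was lost with all 9 libraries in one fit (limma adjusted p = 0.0730) and with a block for replicate number (0.157). It was also lost with a library left out (0.0617 to 0.196), except without M-Shp2-/- replicate 3 (0.0473). These changes stand against a median log2 fold change over all tested genes of 0.15 in M-Shp2-/- macrophages and 0.13 after SHP099, which median-of-ratios scaling moved to -0.01 and -0.01. Between M-Shp2-/- and SHP099 the log2 fold change was 0.88 (standard error 0.26, limma adjusted p = 0.318), higher in all 3 M-Shp2-/- libraries. Over the alternatives this value ranged from 0.45 to 1.15, with 0.58 when SHP099 replicate 2 was left out. In that comparison limma called 0 genes (0%) at the threshold of 0.005, 1437 genes had an unadjusted p under 0.05, voom on recovered reads called 0 genes and the fit of all 9 libraries called 1.

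Its partner Il1a, which codes for interleukin-1α, had an FPKM of 1215, 1373 and 1048 in wild type, 354, 344 and 326 in M-Shp2-/- macrophages and 218, 68.2 and 185 with SHP099. The lowest library for both genes was SHP099 replicate 2. Gm14023 had 1.15, 1.25 and 1.55 reads for every 100 reads of Il1a in the wild-type libraries, 1.25, 1.33 and 1.61 in the M-Shp2-/- libraries and from 1.36 to 1.66 in the SHP099 libraries. The 3 groups overlapped in this ratio, although the level of Gm14023 itself spanned from 1.25 to 19.0 FPKM. The log2 ratio differed from wild type by 0.09 in M-Shp2-/- macrophages (exact permutation test, two-sided, p = 0.5, n = 3 per group) and by 0.21 with SHP099 (exact permutation p = 0.3, n = 3 per group), against a pooled SD of 0.21 and 0.19. With 1 library left out the first difference ranged from -0.01 to 0.21, changing sign, and the second from 0.12 to 0.33. With 3 against 3 libraries this test cannot give a p below 0.1. A p of this size does not show that the ratio was equal.

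The ratio to other genes near Gm14023 was less even. For every 100 reads of Il1b, the next cytokine gene on the chromosome, Gm14023 had a mean of 1.02 ± 0.23 reads in wild type, 1.72 ± 0.38 in M-Shp2-/- macrophages and 2.73 ± 1.05 with SHP099 (SD, n = 3 each). Ckap2l, whose start is the closest to that of Gm14023, had an FPKM of 1.29, 1.56 and 1.13 in wild type, 1.03, 0.875 and 1.89 in M-Shp2-/- macrophages and 1.61, 0.576 and 0.429 with SHP099, and its groups overlapped. Its log2 fold change was -0.06 in M-Shp2-/- macrophages (limma adjusted p = 0.894) and -0.36 with SHP099 (limma adjusted p = 0.416). Of the 4 protein-coding genes within 100 kb of Gm14023, Il1a and Il1b had a log2 fold change beyond 1 in both comparisons with wild type. Slc20a1, a phosphate transporter, had not. Ckap2l, at a wild-type mean of 1.33 FPKM, could hardly pass this limit with 1 added to each FPKM. Its means in M-Shp2-/- and SHP099-treated macrophages were 95.4% and 65.7% of wild type, beside 28.2% and 13.0% for Il1a.

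The bases between the start of Ckap2l and the first exon of Gm14023 are shown because the genes that start on either side of them differed in the share of their wild-type mean that remained. The RefSeq window is given from the base after Ckap2l onwards (GRCm38.p6, chr2:129297213-129297419, plus strand), with the annotated bases of Gm14023 in capitals, which run past its first exon into the intron.
Gm14023: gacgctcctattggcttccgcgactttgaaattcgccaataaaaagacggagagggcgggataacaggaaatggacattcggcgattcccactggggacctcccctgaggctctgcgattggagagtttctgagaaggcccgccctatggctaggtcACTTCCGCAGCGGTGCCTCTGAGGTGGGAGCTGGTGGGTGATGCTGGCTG

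**Figure D2:**
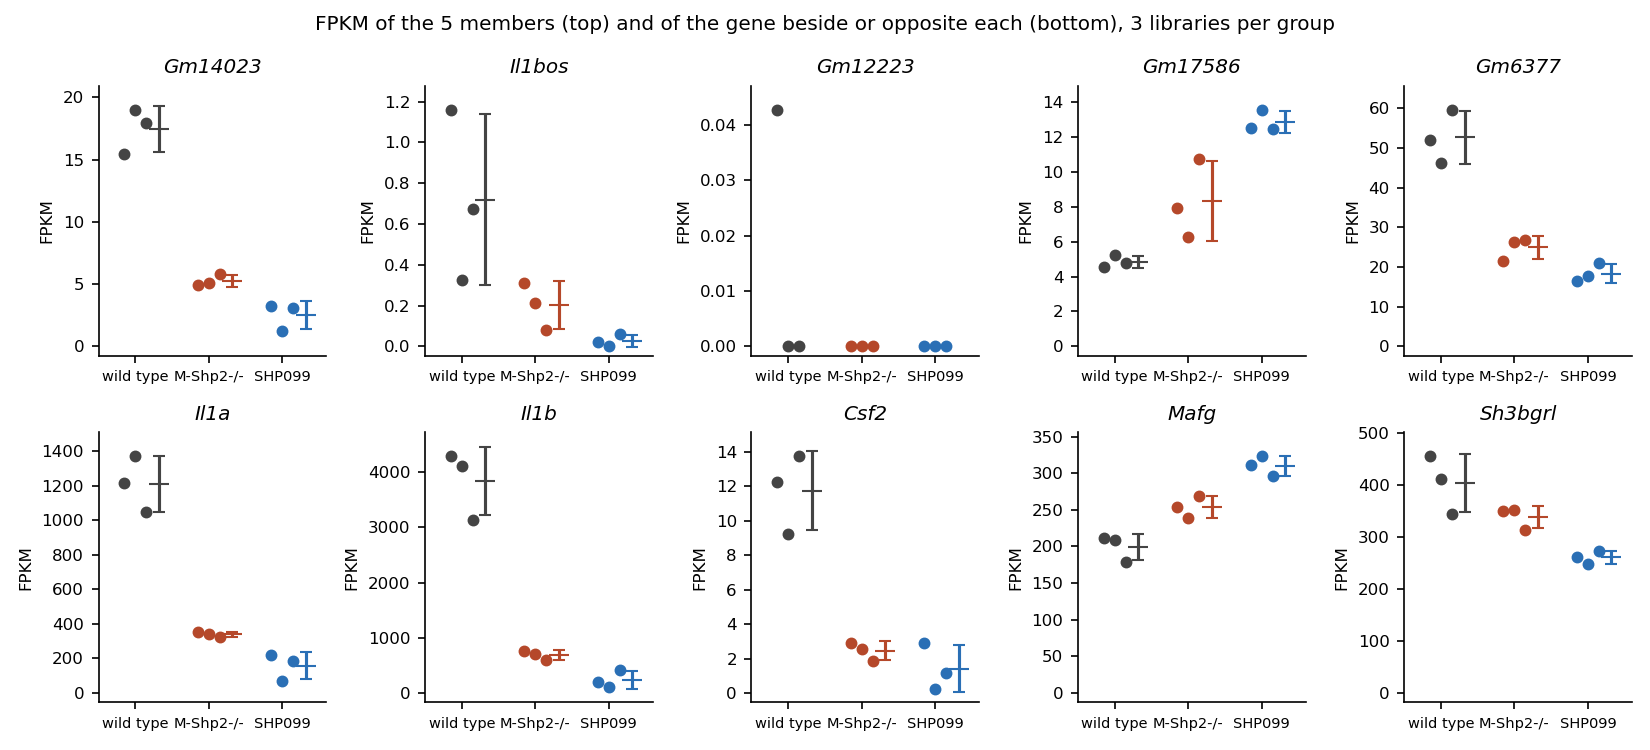
FPKM of the 5 members (top row) and of the gene beside or opposite each (bottom row) in the 3 libraries of wild type, M-Shp2-/- and SHP099 (points), with the mean and SD beside them except for Gm12223, which had 1 read in all. Gm14023 spans 15.5 to 19.0 FPKM in wild type and 1.25 to 3.27 with SHP099, while Gm17586 runs the other way, from 4.54 to 5.21 up to 12.5 to 13.5.

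Il1bos was rare. It had 99, 32 and 55 reads in the wild-type libraries (1.16, 0.326 and 0.672 FPKM), 26, 17 and 7 reads in the M-Shp2-/- libraries (0.313, 0.215 and 0.0798 FPKM) and 2, 0 and 5 reads in the SHP099 libraries (0.0237, 0 and 0.0593 FPKM). The value of 0 allows up to 0.0391 FPKM at 3 reads. Each M-Shp2-/- library lay below each wild-type library, by a narrow gap between 0.313 and 0.326 FPKM, and each SHP099 library lay below both groups. Wild-type replicate 1 was more than 3 times as high as replicate 2, a wider spread than that of Il1b in the same libraries.

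At a mean FPKM under 1, Il1bos was outside the tested genes. With the minimum lowered to 0.1 and a pseudocount of 0.1, its log2 fold change was -1.38 in M-Shp2-/- macrophages (standard error 0.53, limma adjusted p = 0.546). It depended on the setting, at -0.49 with no filter and a pseudocount of 1 (limma adjusted p = 0.687) and -1.80 with voom on the recovered reads (adjusted p = 0.55). With SHP099, the mean of 0.0277 FPKM from 7 reads was under the lowered minimum, which Il1bos passed through wild type, so that no fold change or p is given for that comparison. Il1b, the gene of interleukin-1β, had an FPKM of 4291, 4108 and 3143 in wild type, 763, 706 and 594 in M-Shp2-/- macrophages and 192, 99.96 and 409 with SHP099. For every 100 Il1b reads there were 0.0643, 0.0189 and 0.0509 Il1bos reads in wild type, 0.0977, 0.0725 and 0.0320 in M-Shp2-/- macrophages and 0.0294, 0 and 0.0345 with SHP099. The ratio overlapped between all groups. The log2 ratio was taken with 0.5 reads added to each count. Its difference from wild type was 0.66 in M-Shp2-/- macrophages (exact permutation p = 0.4, n = 3 per group), with a pooled SD of 0.87. With 1 library left out this difference ranged from 0.14 to 1.11. For SHP099, with 7 Il1bos reads in all, no difference of the ratio and no p is given.

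Gm12223 was at the floor. A single read was recovered in wild-type replicate 1 (0.0427 FPKM) and 0 reads in the other 8 libraries, so that no fold change is given. Csf2, which codes for GM-CSF, had 436, 377 and 468 reads in the wild-type libraries, 101, 84 and 67 in the M-Shp2-/- libraries and 101, 7 and 40 in the SHP099 libraries (12.3, 9.24 and 13.8, 2.92, 2.55 and 1.84, and 2.88, 0.220 and 1.14 FPKM). The lowest Csf2 library was again SHP099 replicate 2. Il3, the next gene of this cytokine cluster, had 0, 1 or 4 reads in a library.

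Gm6377 had the highest FPKM of the members in every group. It was 52.1, 46.3 and 59.7 in the wild-type libraries, 21.6, 26.4 and 26.9 in the M-Shp2-/- libraries and 16.4, 17.7 and 20.9 in the SHP099 libraries, from 1128 to 4065 reads. The groups did not overlap, and 47.4% of the wild-type mean remained in M-Shp2-/- macrophages and 34.8% after SHP099. The log2 fold change was -1.05 (standard error 0.14) and -1.47 (standard error 0.13), values that are a description because the gene was selected on its change.

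Sh3bgrl, which shares 1118 bases of chromosome X with Gm6377, was at 455, 410 and 344 FPKM in wild type, 349, 351 and 313 in M-Shp2-/- macrophages and 260, 248 and 272 with SHP099. Its log2 fold change was -0.25 in M-Shp2-/- macrophages (limma adjusted p = 0.486) and -0.62 with SHP099 (limma adjusted p = 0.0284). Gm6377 had 16.4 ± 4.26 reads for every 100 Sh3bgrl reads in wild type, 9.12 ± 1.48 in M-Shp2-/- macrophages and 8.64 ± 0.84 with SHP099 (SD, n = 3 each). Every wild-type library, at 13.9 to 21.3, was above every other library, at 7.58 to 10.5. The ratio was 1.78-fold lower in M-Shp2-/- and 1.87-fold lower in SHP099-treated macrophages than in wild type, a description that follows in part from the choice of Gm6377 by its change. How far transcripts of Sh3bgrl run on into Gm6377, as in the authors' assembly, was not tested.

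Gm17586 was the member with higher values where SHP2 was deleted or inhibited. Its FPKM was 4.54, 5.21 and 4.79 in the wild-type libraries, 7.93, 6.26 and 10.7 in the M-Shp2-/- libraries and 12.5, 13.5 and 12.5 in the SHP099 libraries, from 183 to 499 reads. The groups did not overlap and were ordered wild type, M-Shp2-/-, SHP099. M-Shp2-/- replicate 3, the library with the highest fibroblast sum, was the highest of its group. The mean was 1.72-fold the wild-type mean in M-Shp2-/- and 2.65-fold in SHP099-treated macrophages, and the log2 fold change was 0.65 (standard error 0.19) and 1.24 (standard error 0.11), given as a description.

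Its divergent neighbour Mafg had an FPKM of 211, 209 and 179 in wild type, 254, 239 and 269 in M-Shp2-/- macrophages and 312, 323 and 296 with SHP099, in the same order of groups. The log2 fold change of Mafg was 0.35 in M-Shp2-/- macrophages (limma adjusted p = 0.454) and 0.64 with SHP099 (limma adjusted p = 0.0175). Gm17586 had 1.22, 1.41 and 1.52 reads for every 100 Mafg reads in wild type, 1.77, 1.49 and 2.27 in M-Shp2-/- macrophages and 2.28, 2.37 and 2.39 with SHP099. The SHP099 libraries were above the wild-type libraries in this ratio, by 1.70-fold. They were above the M-Shp2-/- libraries by a narrow gap between 2.27 and 2.28. These differences are a description that follows in part from the choice of Gm17586 by its change. Of the 20 protein-coding genes within 100 kb of Gm17586, 13 were tested, and in the comparisons with wild type 0 of them changed by a log2 fold change of 1 or more. Mafg had the highest value of the 13 in both comparisons. Among the untested neighbours, Pycr1, 586 bases from Gm17586, was at 0.493, 0.676 and 0.257 FPKM in wild type, 1.07, 0.940 and 1.14 in M-Shp2-/- macrophages and 0.786, 0.401 and 0.614 with SHP099. Its M-Shp2-/- libraries lay above all others, at 2.21-fold the wild-type mean, and its SHP099 libraries overlapped wild type. Rac3, also untested, had a mean of 1.08 FPKM in wild type and 1.07 in M-Shp2-/- macrophages, with overlap. With SHP099 its mean was 0.545 and each library lay below wild type.

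The stretch between the starts of Mafg and Gm17586 is shown because both genes were higher after SHP099. It is the RefSeq window from the base after Mafg onwards (GRCm38.p6, chr11:120633601-120633799, plus strand), with the annotated bases of Gm17586 in capitals.
Gm17586: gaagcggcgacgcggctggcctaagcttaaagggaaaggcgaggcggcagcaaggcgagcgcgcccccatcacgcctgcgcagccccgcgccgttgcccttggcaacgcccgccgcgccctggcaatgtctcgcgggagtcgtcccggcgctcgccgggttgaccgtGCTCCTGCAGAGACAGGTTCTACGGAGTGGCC

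The whole RefSeq windows of 300 bases, 250 before and 50 after a start, were compared with the windows of all genes. That of Gm17586 held 39 CG dinucleotides and that of Gm14023 held 21, against a median of 7 over 32851 windows, and 95.6% and 75.2% of the windows held fewer. The windows of Il1bos and Gm6377 held 2 and 4. Letters of known motifs were searched on both strands. The κB site was searched only in the form GGGA and TTCC with any 2 letters between, and other forms of it were not searched. This κB form, TGANTCA (AP-1) and TGACGTCA (CRE) were in 1.47%, 7.81% and 1.79% of all windows. They were in none of the windows of Gm14023, Il1bos, Gm17586 and Gm6377. CACGTG (E-box), in 7.15% of all windows, was in that of Gm17586 at 120633583, within the first exon of Mafg. CCAAT, in 37.4% of all windows, occurred 3 times in the window of Gm14023 and 2 times in that of Gm6377. A match or its absence describes these letters in these windows.

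By level, the members changed places between the groups. In wild type the order of mean FPKM was Gm6377 (52.7 ± 6.70), Gm14023 (17.5 ± 1.83), Gm17586 (4.85 ± 0.34) and Il1bos (0.720 ± 0.42), with SD and n = 3 each. In M-Shp2-/- macrophages Gm17586 (8.31 ± 2.27) stood above Gm14023 (5.26 ± 0.47), with no overlap between their libraries. With SHP099 Gm17586 (12.8 ± 0.61) stood next to Gm6377 (18.3 ± 2.32) and Gm14023 was at 2.54 ± 1.12. In each of these orders the libraries of neighbouring members did not overlap. In the comparisons with wild type, 3.07% of all tested genes were lower with no overlap in M-Shp2-/- macrophages and 6.77% after SHP099, and 16.0% and 27.9% were higher with no overlap. Among the 3 tested members Gm14023 and Gm6377 were of the former kind and Gm17586 of the latter in both comparisons, of which the choice of Gm6377 and Gm17586 made use. How many of all tested genes had no overlap among all 3 groups, as these 3 members had, was not counted.

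The genes whose log2(FPKM + 1) followed each member most closely over the 9 libraries were found by Pearson correlation, which includes the differences between the 3 groups and is given without a test. For Gm14023 they were Il1a (r = 0.989), the chemokine gene Ccl2 (0.981), Stk40 (0.977), Il1b (0.975) and Il1rn (0.972), the gene of the interleukin-1 receptor antagonist. Il1a was thus the first of the genes tested, and Ckap2l (r = 0.510) was at position 836. For Gm6377 they were Srgn (0.980), which codes for the proteoglycan serglycin, Il23a (0.978), Ptgs2 (0.976), Ppp1r15b (0.973) and Fcrlb (0.973), and Sh3bgrl (r = 0.807) was at position 184. For Gm17586 they were Tbc1d20 (0.987), the noncoding Dleu2 (0.984), Epb41 (0.980), 9530068E07Rik (0.979) and Peli3 (0.979), and Mafg (r = 0.956) was at position 59. For Il1bos, with few reads, they were Tsta3 (0.941), Stx6 (0.937), Map3k8 (0.935), Prkcd (0.933) and Nr4a3 (0.932), and Il1b (r = 0.846) was at position 75. No likeness was computed for Gm12223.

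To place Gm14023, Il1bos and Gm12223 among genes of their kind, every noncoding gene with an exon opposite an exon of a listed inflammatory gene was collected. There were 21 such genes opposite 20 of the 132 inflammatory genes in the table, 8 with a mean FPKM of at least 1 and 4 with fewer than 10 reads over the 9 libraries, Gm12223 among them. Gm14023 had the most reads of the 21, 6113 over the 9 libraries. Limma called 0 of the 8 in the comparisons with wild type, beside 0.00873% and 0.166% of all tested genes. Gm26584 and Gm47118 passed the filter through their wild-type level alone, so directions were counted among the 6 with a mean FPKM of at least 1 in each group, a limit set after seeing the data. Gm14023 was the lowest of the 6 in both comparisons with wild type. Of the 6, 2 were lower in M-Shp2-/- macrophages and 5 after SHP099, beside 22.4% and 28.2% of the 10864 genes that met the same limit. Their median log2 fold changes were 0.11 and -0.06, against 0.14 and 0.13 over those genes. These shares and medians depend on the scaling, as median-of-ratios scaling moved the medians over all tested genes to -0.01 and -0.01. An adjusted p of 0.05 or less was reached by Gm14023 alone, in both comparisons, beside 0.0873% and 6.96% of all tested genes. Gm26584, opposite the arginine transporter gene Slc7a2, was at 2.05 ± 0.95 FPKM in wild type, 0.688 ± 0.24 in M-Shp2-/- and 0.656 ± 0.21 in SHP099-treated macrophages (SD, n = 3 each). Gm47118, opposite the endothelin gene Edn1, was at 2.15 ± 2.09, 0.187 ± 0.23 and 0.806 ± 0.49 FPKM (SD, n = 3 each), from 112, 10 and 42 reads, and its groups overlapped wild type. As both were tested through their wild-type level, no fold change is given for them. Junos, opposite Jun, had the highest value of the 6 in M-Shp2-/- macrophages (0.36, limma adjusted p = 0.621) and Gm11110, opposite Tnfsf9, after SHP099 (0.07, limma adjusted p = 0.854).

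The ratio of Gm14023 to its partner was also set beside the ratios of other pairs with an abundant partner. Of the 8 pairs in which the protein-coding gene had a wild-type FPKM of at least 1000, Gm14023 had the most reads per 100 partner reads in wild type, 1.30, followed by Gm40578 opposite Tnfaip2 with 0.166 and Il1bos with 0.0431. This order holds within that limit, and Il1a, at 1212 FPKM, was the least abundant partner in it. The ratio takes no account of how many bases could be counted. All 1742 exon bases of Gm47123 lie opposite exons of its partner Ctsl, and it had 0 reads in wild type. Of the exon bases of Gm14023, 81.5% lie opposite introns of Il1a. How far the order follows from gene structure was not tested. Across the annotation, 159 pairs of a noncoding and a protein-coding gene with opposite overlapping exons were both tested, and their log2 fold changes had a Pearson correlation of 0.719 in M-Shp2-/- macrophages and 0.746 with SHP099 (Spearman 0.466 and 0.547). These pairs include Gm14023 with Il1a, and genes tested through the level of 1 group. Of the 122 pairs with a mean FPKM of at least 1 in each group for both genes, a limit set after seeing the data, the 121 without Gm14023 had a correlation of 0.429 and 0.590 (Spearman 0.366 and 0.442). Pairs are not independent replicates, and both genes of a pair were read in the same libraries. In pairs with at least 50% of the noncoding exon bases in an intron of the opposite gene, the kind to which Gm14023 also belongs, the correlation was 0.545 and 0.589 over 182 tested pairs and 0.331 and 0.405 over the 141 that met this limit without Gm14023 (Spearman 0.294 and 0.343). In pairs with starts at most 500 bases apart and no exon overlap, the kind to which Gm17586 and Mafg belong, it was 0.239 and 0.367 over 49 tested pairs and 0.489 and 0.375 over the 35 that met the limit without Gm17586 (Spearman 0.301 and 0.285).

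**Figure D3:**
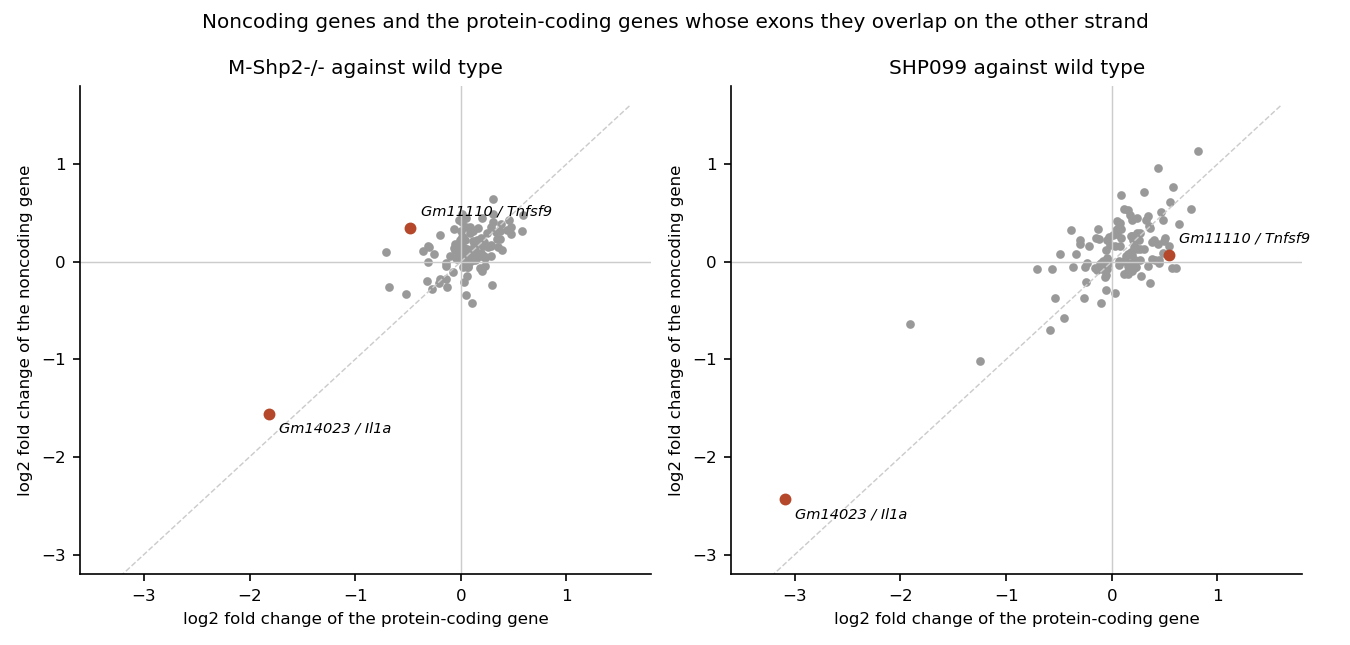
Log2 fold change of the noncoding gene of 122 pairs (vertical axis) against that of the protein-coding gene whose exons it overlaps on the other strand (horizontal axis), both with a mean FPKM of at least 1 in each group, in M-Shp2-/- (left) and SHP099-treated macrophages (right) against wild type, with equal change on the dashed line and 2 named pairs in red. Gm14023 and Il1a lie at the lower left in both, at -1.56 and -1.82, and at -2.44 and -3.09. The 1 added to each FPKM makes changes of genes at a low FPKM smaller, and with 0.1 added Gm14023 was at -1.71 and -2.84.

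A list of 20 noncoding RNA genes described in stimulated macrophages was set beside the members. Of the 16 tested, limma called 0 in either comparison, with 8 lower and 8 higher in M-Shp2-/- macrophages (median log2 fold change 0.08, against 0.15 over all tested genes) and 9 lower and 7 higher with SHP099 (median -0.03, against 0.13). Of all tested genes, 22.6% and 28.8% were lower. Median-of-ratios scaling moved the medians over all tested genes to -0.01 and -0.01, so that these shares depend on the scaling. At an unadjusted p under 0.05, 1204 and 3061 of all tested genes stood in these comparisons. At an adjusted p of at most 0.05, with no limit on the fold change, there were 0 and 4 of the list, beside 10 (0.0873%) and 797 (6.96%) of all tested genes. The most lowered after SHP099 was Ptgs2os2, which lies by the cyclooxygenase gene Ptgs2, with 7.70 ± 1.20 FPKM in wild type and 2.56 ± 0.68 with SHP099 (SD, n = 3 each, log2 fold change -1.29, limma adjusted p = 0.0161). The most raised was Neat1, the RNA that builds paraspeckles, with 76.8 ± 2.66 and 147 ± 27.9 FPKM (SD, n = 3 each, log2 fold change 0.91, limma adjusted p = 0.0192). In M-Shp2-/- macrophages the ends of the list were Mir155hg, the host gene of miR-155 (log2 fold change -0.76, limma adjusted p = 0.192), and Gas5 (0.37, limma adjusted p = 0.465). Gm14023 had a more negative log2 fold change than any of the 16 in both comparisons.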

How the data were processed

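RNA of 9 samples was sequenced as paired ends. The submitters' processing notes name CASAVA 1.8, HISAT2 2.0.4 and HTSeq 0.9.1. The authors deposited FPKM per gene. The FPKM tool, genome build and strand setting are not given in the sources used here. The authors' deposited assembly spans were used for position only. Groups came from the sample labels, and treatments from the study's methods.

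The members and lists were chosen with earlier results of these data known. Of 54059 genes, 53620 matched GENCODE M21. Comparisons used limma 3.58.1 (eBayes with trend, R 4.3.3) on log2(FPKM + 1) of 11450 genes in the 6 libraries compared, with Benjamini-Hochberg adjustment. Plots and other values used matplotlib 3.10.9, pandas 2.3.3 and numpy 2.4.6 under Python 3.11.15. Libraries of a group correlated at 0.954 to 0.992, and no pair agreed within sampling noise (chi-square per degree of freedom 19.8 to 213). The ratios to Mafg, Ckap2l and of Gm14023 to Il1b, the marker sum without Lyz2, the limit of 1 FPKM in each group and the pairs without members were chosen after seeing the data.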

Additional observations from a re-analysis of the deposited data

How the results depend on the processing

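The log2 fold changes of Gm14023, Gm17586 and Gm6377 kept their direction in all 3 comparisons under every alternative run. Gm14023 ranged from -1.73 to -1.13 in M-Shp2-/- macrophages and from -2.88 to -1.58 with SHP099, and was called at 0.005 after SHP099 with a pseudocount of 5 and with all 9 libraries in one fit. Gm17586 ranged from 0.86 to 1.40 with SHP099 and Gm6377 from -1.62 to -1.30.

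The number of genes called over the whole table moved far more. In M-Shp2-/- against wild type it was 1, and 0 with no filter, 3 with median-of-ratios scaling, 2 with all 9 libraries and 9 at an adjusted p of 0.05, and 0 with any replicate left out. In SHP099 against wild type it was 19, and 0 with no filter, 4 with the filter and pseudocount at 0.1, 7 with voom and 197 at 0.05, and from 0 to 26 with a replicate left out. In M-Shp2-/- against SHP099 it was 0, and 1 with all 9 libraries and 7 at 0.05, and from 0 to 159 with a replicate left out, the latter without M-Shp2-/- replicate 3. The causes were not tested.

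A block for replicate number left 0 calls in each comparison, and Gm14023 had a limma adjusted p of 0.157 in M-Shp2-/- macrophages and 0.0238 with SHP099. Libraries of the same number did not deviate together in every pair (correlations from -0.43 to 0.49 in M-Shp2-/- against wild type, from -0.09 to 0.45 in SHP099 against wild type and from -0.05 to 0.18 in M-Shp2-/- against SHP099). With so few libraries, these correlations cannot tell whether any libraries of the same number were prepared together.

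The difference in the log2 ratio of Gm14023 to Il1a in M-Shp2-/- macrophages ranged from -0.0145 to 0.214 with a replicate left out, and that of Gm6377 to Sh3bgrl between M-Shp2-/- and SHP099 from -0.0402 to 0.197, with the sign changed without M-Shp2-/- replicate 3 in both, without wild-type replicate 1 (-0.00075) in the first and without SHP099 replicate 1 (-0.0062) in the second. With SHP099 against wild type the Gm14023 difference ranged from 0.12 to 0.33. That of Il1bos to Il1b ranged from 0.14 to 1.11 in M-Shp2-/- macrophages. Merged exon length in place of mean transcript length left 63.7% to 67.4% of low values on whole steps. With 3 libraries per group the exact test of a ratio cannot give a p below 0.1. Il1bos had 0 to 99 reads in a library and Gm12223 had 1 read in all.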
